A study of Mus musculus with 6 samples.

Results

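The peroxiredoxin, thioredoxin and sulfiredoxin system was read here as 10 genes in the mouse ventral midbrain, chosen by name and role. No measured value enters the choice of genes by this rule, although earlier results of these data were known when the genes were picked. They were the peroxiredoxins Prdx1 to Prdx6, the thioredoxin Txn1, the thioredoxin reductases Txnrd1 and Txnrd2, and the sulfiredoxin Srxn1. Each gene was represented by the probe set annotated to it with the highest mean over the 6 arrays. Of the 10 genes, 7 had a probe set of their own, among 22180 genes with one and 41345 probe sets in all. Prdx1 appeared only on 3 probe sets that it shares with other genes, and Prdx5 and Prdx6 were not analysed here.

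RNA came from the ventral midbrain of male mice 2 months of age, hybridised to Affymetrix arrays. The 6 samples were 3 labelled Bach1 knockout and 3 labelled wild type, age matched, with no treatment. The sources used here do not give the strain, the allele or the number of mice per sample, and p-values thus cover the spread between 6 arrays, which may be technical. The comparison asks which transcripts differ when BACH1 is missing. BACH1 is a transcriptional repressor that pairs with small Maf proteins and competes with the activator NRF2 for shared DNA elements.

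Peroxiredoxins reduce hydrogen peroxide with a reactive cysteine, which is oxidised in the process. In most of them thioredoxin then reduces the enzyme, and thioredoxin reductase, a selenoprotein, restores thioredoxin with electrons from NADPH. When peroxide oxidises the cysteine of Prdx1, Prdx2, Prdx3 or Prdx4 further, the enzyme is inactive until sulfiredoxin repairs it. Prdx1, Prdx2, Prdx6, Txn1, Txnrd1 and Srxn1 act mainly in the cytosol, Prdx3 and Txnrd2 in mitochondria, Prdx5 in mitochondria, peroxisomes and cytosol, and Prdx4 in the endoplasmic reticulum (ER). Dopamine neurons of the midbrain produce hydrogen peroxide when they oxidise dopamine, and several genes of the system, Srxn1, Txnrd1 and Prdx1 among them, are known NRF2 targets.

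Promoters of the members were searched for the DNA elements of these regulators, because the comparison removes a repressor that acts through them. RefSeq (GRCm38.p6) gave 11 windows for 9 members, each with 250 bases before and 50 after a gene start, and none was taken for Prdx6. The motifs were TGACNNNGC, the core of the antioxidant response element, TGACTCA, the core of the element bound by Maf and AP-1 dimers, and TGACTCAGC, which contains both, all on either strand. TGACNNNGC lay in 3 of the 11 windows (Prdx1, Txnrd1 and Srxn1), against 12.4% of 32851 promoter windows of all genes. TGACTCA lay in 2 (Prdx1 and Srxn1), against 5.2%, and TGACTCAGC in 1 (Prdx1), against 0.454%. These 3 windows are printed 5′ to 3′ with every match in capitals, as they hold all the matches among the members. All 3 genes lie on the plus strand, at chr2:152105274-152105573 for Srxn1, chr4:116685349-116685648 for Prdx1 and chr10:82858956-82859255 for Txnrd1, which has 3 windows.
Srxn1: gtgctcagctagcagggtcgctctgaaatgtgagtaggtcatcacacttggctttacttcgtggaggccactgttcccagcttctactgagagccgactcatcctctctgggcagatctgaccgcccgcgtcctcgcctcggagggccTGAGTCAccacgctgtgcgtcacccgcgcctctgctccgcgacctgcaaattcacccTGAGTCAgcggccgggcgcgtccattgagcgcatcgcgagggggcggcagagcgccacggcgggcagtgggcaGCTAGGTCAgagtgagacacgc
Prdx1: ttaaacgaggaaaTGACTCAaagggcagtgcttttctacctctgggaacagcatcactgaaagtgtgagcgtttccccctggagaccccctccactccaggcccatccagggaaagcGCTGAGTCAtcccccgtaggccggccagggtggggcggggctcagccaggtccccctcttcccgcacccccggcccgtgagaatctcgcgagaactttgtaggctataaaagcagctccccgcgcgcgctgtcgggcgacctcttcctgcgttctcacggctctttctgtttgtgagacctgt
Txnrd1: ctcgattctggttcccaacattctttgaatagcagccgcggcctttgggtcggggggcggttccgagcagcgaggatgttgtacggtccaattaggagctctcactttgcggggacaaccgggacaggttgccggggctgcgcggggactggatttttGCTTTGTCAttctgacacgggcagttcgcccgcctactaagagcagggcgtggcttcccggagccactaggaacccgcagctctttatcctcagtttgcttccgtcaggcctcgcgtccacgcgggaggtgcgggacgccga
In Srxn1, TGACTCA was matched on the minus strand at positions -102 and -45 from the gene start, and TGACNNNGC on the minus strand at position 29. In Prdx1, TGACTCA was matched at -237, and at -133 a single minus-strand stretch matched all 3 motifs. In Txnrd1, TGACNNNGC was matched on the minus strand at -92. The Srxn1 stretch at -45 is followed by gc and reads TGAGTCAGC on the printed strand. That spelling has G where the motif TGACTCAGC has C, so it was not searched for or counted in any promoter. A match is a run of letters and was not tested for binding.

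The arrays were alike, with pairwise Pearson correlations of 0.984 to 0.989 over all probe sets (probe sets are no replicates). Dopamine neuron markers were bright on every array, with levels of 11.02 to 11.49 for Th and 11.69 to 12.17 for Slc6a3 on the log2 scale. Of 9 such markers, 8 had a higher mean under the knockout label, with a median log2 difference of 0.18. Limma called 0 of them, and 1 reached an unadjusted p under 0.05. Their mean deviation from the wild-type means overlapped between the groups, at -0.0049 to 0.34 against -0.11 to 0.060. Endothelial markers were the list of the 10 marker lists with separate groups. All 6 had a lower mean under the knockout label, and their mean deviation was -0.18 to -0.048 against -0.021 to 0.034, with 0 called by limma and 0 at an unadjusted p under 0.05. Oligodendrocyte markers had 6 of 7 lower means, with overlapping groups. Their mean deviation was -0.22 on replicate 2 of the knockout label and -0.056 to 0.084 on the other arrays. Some arrays stood apart in markers of neighbouring tissue. The mean deviation of 6 meningeal fibroblast markers from their wild-type means reached -0.50 on replicate 1 of the wild type and -0.55 on replicate 2 of the knockout label, against -0.10 to 0.27 on the other 4 arrays. For 5 choroid plexus markers that mean was 0.40 on replicate 2 of the wild type and 0.29 on replicate 2 of the knockout label. The other 4 arrays were at -0.35 to -0.049. Of 7 hypothalamus markers, 6 were measured. All 6 had a lower mean under the knockout label, with a median log2 difference of -1.25. Limma called 0 of these 6, and 1 reached an unadjusted p under 0.05. Their mean deviation overlapped between the groups, at -1.99 to -0.53 on the knockout-labelled arrays and -0.66 to 0.80 on the wild-type arrays. Of 6 red blood cell markers, cells rich in Prdx2, 1 had a probe set of its own, Slc4a1, with levels of 5.69 to 6.24 on the 6 arrays. Whether the makeup of the dissected tissue had a part in the members' values was not tested, and in bulk tissue fewer cells of a type and less RNA per cell cannot be told apart.

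Bach1 itself did not read lower on the arrays labelled knockout. Its log2 levels (probe set 17326895) were 7.59, 7.68 and 7.70 on knockout-labelled replicates 1, 2 and 3 and 7.46, 7.59 and 7.57 on wild-type replicates 1, 2 and 3. The directions given here therefore rest on the labels, and a probe set outside a deleted part checks nothing. Hmox1, the heme oxygenase gene that BACH1 is known to repress, was 3.85-fold higher on the knockout-labelled arrays (95% interval 3.22 to 4.62; limma, adjusted p = 0.0181). It was the 1 named gene past the test, and with any single array left out its adjusted p lay between 0.134 and 0.233.

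None of the 7 measured members changed past the test. Limma called 0 of the 7 at an adjusted p under 0.05, and 0.00726% of all probe sets were called. At an unadjusted p under 0.05 the count was also 0 of 7, against 8.27% of all probe sets, and 0 of 7 had groups that did not overlap, against 14.3%. The means of Prdx3, Txnrd2 and Srxn1 were higher and those of Prdx2, Prdx4, Txn1 and Txnrd1 lower on the knockout-labelled arrays. The median log2 difference was -0.0017 over the members and 0.00050 over all probe sets. All 7 members were brighter than the 40th percentile of the means of all probe sets (5.07).

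**Figure D1:**
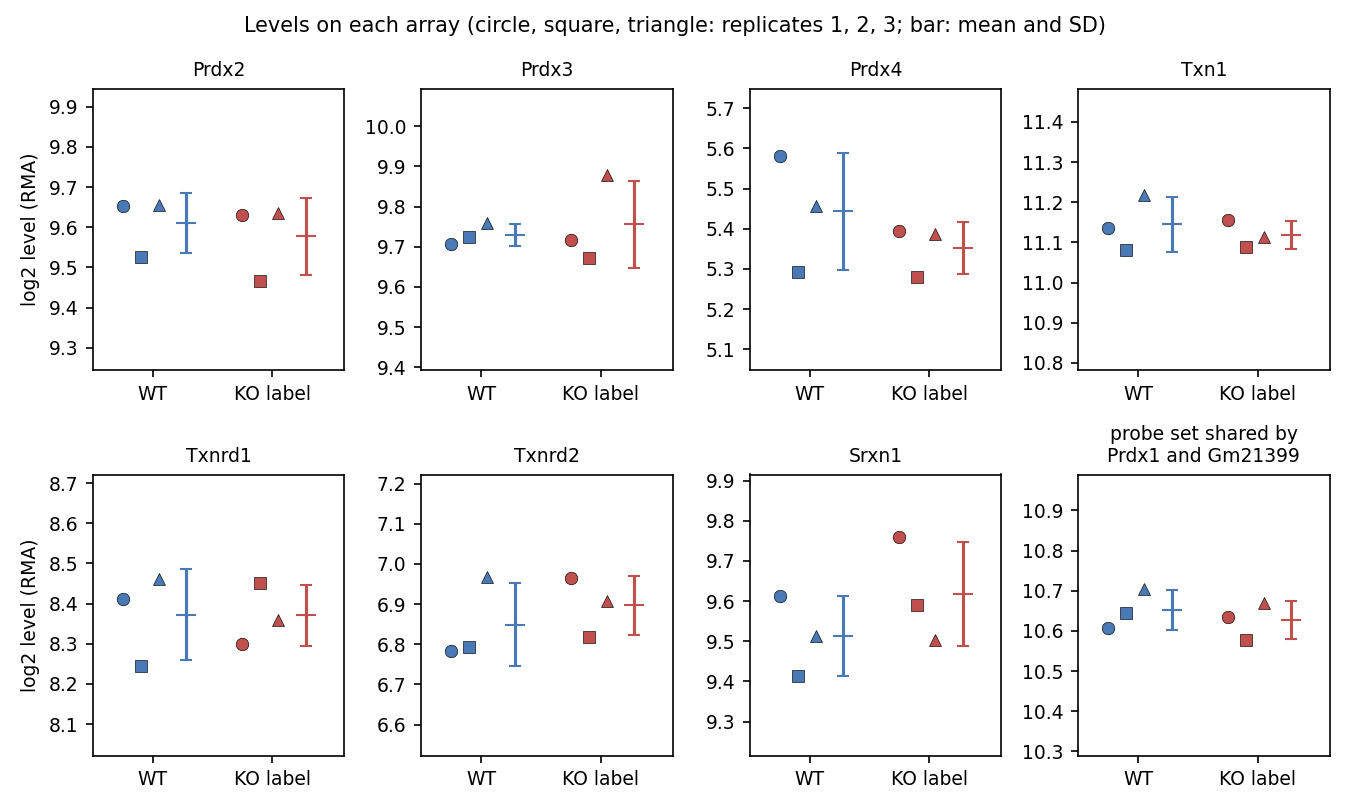
Log2 expression levels of the 7 measured members and of probe set 17548658, shared by Prdx1 and Gm21399, 1 panel each, on 3 wild-type (blue) and 3 knockout-labelled (red) arrays, with bars for mean and SD. Every panel spans the same log2 range around its own centre, and the groups overlap in every panel.

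Among the peroxiredoxins of the cytosol, Prdx2, a highly abundant peroxidase of neurons and red blood cells, had log2 levels of 9.63, 9.47 and 9.64 on knockout-labelled replicates 1 to 3 and 9.65, 9.53 and 9.66 on wild-type replicates 1 to 3. Replicate 2 was the lowest array of each group, and the groups overlapped almost wholly. The log2 difference was -0.034 (95% interval -0.25 to 0.18; limma, adjusted p = 0.939), and it was 0.021 without knockout-labelled replicate 2. The gene table names 2 pseudogenes of Prdx2, and whether the probe set also reads them was not tested.

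Prdx1, the abundant cytosolic peroxidase known as an NRF2 target, could not be read alone. The one of its 3 shared probe sets with the highest mean (17548658) is annotated to Prdx1 and the pseudogene Gm21399. Its log2 levels were 10.63, 10.58 and 10.67 on knockout-labelled replicates 1 to 3 and 10.61, 10.65 and 10.70 on wild-type replicates 1 to 3. The groups overlapped, with a log2 difference of -0.026 (95% interval -0.21 to 0.16; limma, adjusted p = 0.947) that was 0.00019 without wild-type replicate 3. A second probe set of the same pair of genes (17417480) had a log2 difference of 0.021 (95% interval -0.29 to 0.33), which turned negative in 5 alternatives. The third (17428698), shared also with the long noncoding RNA gene AV051173, lay below the 40th percentile and had a log2 difference of -0.29 (95% interval -0.74 to 0.17; limma, adjusted p = 0.713). That difference was -0.44 without knockout-labelled replicate 1 and -0.10 without knockout-labelled replicate 2.

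In mitochondria, Prdx3, the peroxidase of the matrix, had log2 levels of 9.72, 9.67 and 9.88 on knockout-labelled replicates 1 to 3 and 9.71, 9.72 and 9.76 on wild-type replicates 1 to 3. Knockout-labelled replicate 3 was the highest array and replicate 2 the lowest, so the wild-type values lay within the knockout-labelled range. The log2 difference was 0.026 (95% interval -0.19 to 0.24; limma, adjusted p = 0.954). Its sign turned to -0.035 without knockout-labelled replicate 3 and to -0.021 with each array centred on its median. That centring moved the median over all probe sets to -0.047.

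Prdx4, the peroxidase of the ER, which passes oxidising equivalents to protein folding, had log2 levels of 5.39, 5.28 and 5.39 on knockout-labelled replicates 1 to 3 and 5.58, 5.29 and 5.46 on wild-type replicates 1 to 3. Wild-type replicates 1 and 3 were the highest arrays, while wild-type replicate 2 was within the knockout-labelled range. The log2 difference was -0.090 (95% interval -0.34 to 0.16; limma, adjusted p = 0.838). It was -0.021 without wild-type replicate 1 and -0.17 without wild-type replicate 2, and negative in every alternative run.

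Txn1, the cytosolic thioredoxin that reduces oxidised peroxiredoxins, had the narrowest interval of the 7. Its log2 levels were 11.16, 11.09 and 11.11 on knockout-labelled replicates 1 to 3 and 11.13, 11.08 and 11.22 on wild-type replicates 1 to 3. The knockout-labelled values lay within the wild-type range. Its log2 difference was -0.026 (95% interval -0.22 to 0.17; limma, adjusted p = 0.948), and it was 0.011 without wild-type replicate 3. The gene table names 1 pseudogene of this gene, and whether the probe set reads it was not tested.

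The reductases serve different compartments. Txnrd1, the cytosolic enzyme and an NRF2 target, had log2 levels of 8.30, 8.45 and 8.36 on knockout-labelled replicates 1 to 3 and 8.41, 8.24 and 8.46 on wild-type replicates 1 to 3. The knockout-labelled values again lay within the wild-type range, and the log2 difference was -0.0017 (95% interval -0.23 to 0.23; limma, adjusted p = 0.998). Its sign turned in 6 alternatives, with values up to 0.043. Txnrd2, the mitochondrial enzyme, had log2 levels of 6.97, 6.82 and 6.91 on knockout-labelled replicates 1 to 3 and 6.78, 6.79 and 6.97 on wild-type replicates 1 to 3. Wild-type replicates 1 and 2 were below all knockout-labelled arrays and wild-type replicate 3 was level with the highest. The log2 difference was 0.049 (95% interval -0.17 to 0.27; limma, adjusted p = 0.912), positive in every alternative run, from 0.0016 to 0.11.

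Srxn1, the sulfiredoxin that repairs overoxidised peroxiredoxins, had the largest difference of the 7. Its log2 levels were 9.76, 9.59 and 9.50 on knockout-labelled replicates 1 to 3 and 9.61, 9.41 and 9.51 on wild-type replicates 1 to 3. Knockout-labelled replicate 1 was the highest array, but knockout-labelled replicate 3 was below wild-type replicates 1 and 3. The log2 difference was 0.10 (SE 0.10, 95% interval -0.15 to 0.36; limma, adjusted p = 0.811). It was 0.033 without knockout-labelled replicate 1, 0.054 without wild-type replicate 2 and 0.16 without knockout-labelled replicate 3, positive in every alternative run.

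**Figure D2:**
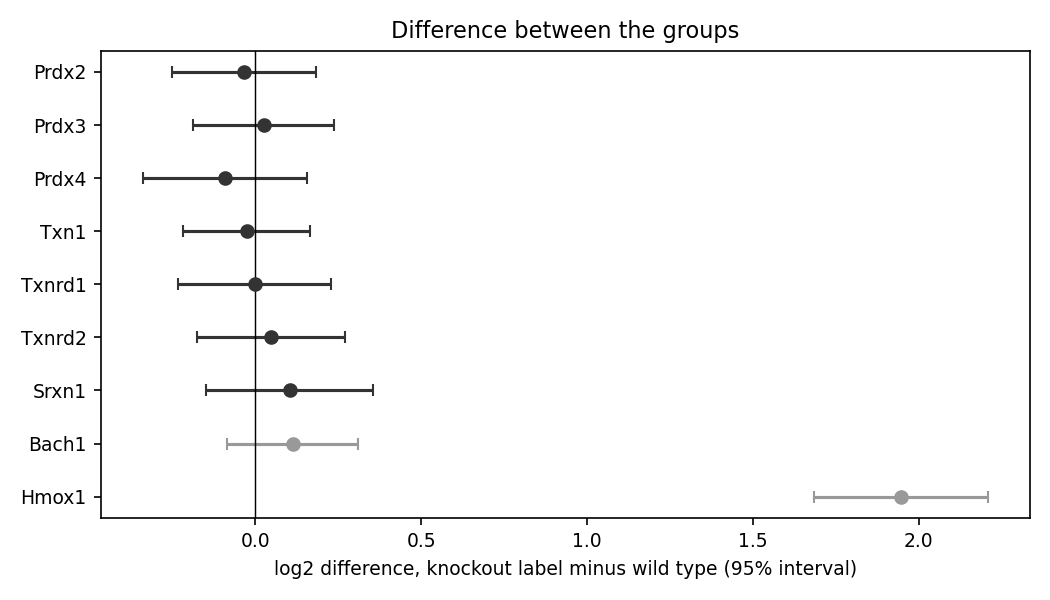
Log2 difference between the knockout-labelled and wild-type arrays (points) with 95% intervals from limma for the 7 measured members, Bach1 and Hmox1. The intervals of the 7 members all include 0 and end at or below 0.36, while that of Hmox1 runs from 1.69 to 2.21.

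The 95% intervals, taken one gene at a time, give the range of differences that these arrays allow. On the fold scale, their upper limits corresponded to increases of 1.11-fold (Prdx4) to 1.28-fold (Srxn1), and their lower limits to decreases of 1.11-fold (Srxn1) to 1.26-fold (Prdx4). The Prdx4 probe set was dim, and RMA compresses differences of dim probe sets. The difference from Hmox1 was read as the ratio of Hmox1 to each member within an array. The ratio differed between the groups by 1.84 (Srxn1) to 2.04 (Prdx4) on the log2 scale. For Srxn1 the log2 ratio was -1.26, -1.37 and -1.10 on knockout-labelled replicates 1 to 3 and -3.10, -2.95 and -3.20 on wild-type replicates 1 to 3. In all 7 ratios the groups were separate, and each gave p = 0.1 in a two-sided exact permutation test, the smallest that 3 against 3 arrays allow. That p cannot pass 0.05, and the separation follows from the gap of Hmox1 itself, which is wider than the range of any member, so the ratios are given as values only.

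By compartment, the 4 measured cytosolic genes had a median log2 difference of -0.014, the 2 mitochondrial genes had 0.026 and 0.049, and the single ER gene had -0.090. These differences between compartments lie inside the intervals of the single genes, and they were not tested against each other. Levels of different probe sets were not ranked, since each probe set has its own response to RNA.

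The members were measured with a small spread. Their within-group SD ran from 0.054 to 0.12 on the log2 scale, with a median of 0.090, against 0.17 over all probe sets and 0.12 over the 21338 probe sets of the same range of levels. The median size of the log2 difference was 0.034 for the members and 0.091 for probe sets of that range.

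**Figure D3:**
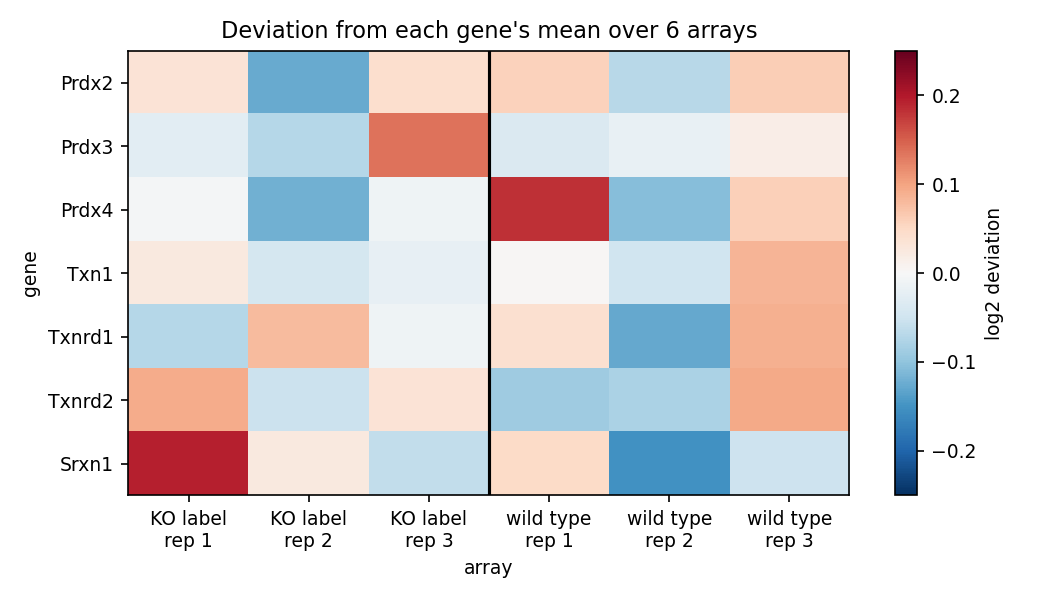
Deviation of each member's log2 level on each array (columns) from that gene's mean over the 6 arrays (rows), with knockout-labelled arrays left of the line. The highest cells are Srxn1 on knockout-labelled replicate 1 and Prdx4 on wild-type replicate 1, and replicate 2 is low for most genes in both groups.

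Across arrays the members followed each other loosely. Their mean deviation was 0.035, -0.044 and 0.015 on knockout-labelled replicates 1 to 3 and 0.030, -0.086 and 0.051 on wild-type replicates 1 to 3, so replicate 2 was the lowest array of each group. Of the 21 pairs of members, 19 had a positive Pearson r over the 6 arrays, with a median of 0.28. The share of positive pairs is not given for other genes, so it cannot be read as particular to the members. The closest pair was Prdx2 and Prdx4 (r = 0.82), followed by Txn1 and Txnrd2 (r = 0.74), and the least alike was Prdx3 and Srxn1 (r = -0.35). Srxn1 was closest to Txnrd2, at r = 0.35. All these points share the same arrays and their normalization. Of 15686 other genes above the 40th percentile, those closest to the members' mean were Lrrc56 (r = 0.99), Kctd15 (0.99), Gm10257 (0.98), Gm5741 (0.98) and Nhp2 (0.97), each over 6 arrays. They were selected as the highest of 15686 values, so a high r can arise by selection alone and shows no link.

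Genes around the system were read from 7 lists with 36 genes, 35 of them on a separate probe set. Limma called 0 of the 35 in either direction, and 0 reached an unadjusted p under 0.05. Of the 35, 25 had a lower and 10 a higher mean on the knockout-labelled arrays, against 49.9% lower over all probe sets, with a median log2 difference of -0.050. All 6 endothelial and 6 of 7 oligodendrocyte markers were lower as well, and their part in this count was not tested. Without knockout-labelled replicate 2 the count was 24 of 35. All 35 were above the 40th percentile, where the median log2 difference over all probe sets was -0.016. The median of the 35 genes was -0.020 without knockout-labelled replicate 2 and also -0.020 after renewed quantile normalization or cyclic loess. It was -0.097 with each array centred on its median, which moved the median over all probe sets to -0.047. All knockout-labelled arrays were below all wild-type arrays for 3 of the 35 genes, against 6.86% of all probe sets, and above them for 0, against 7.4%.

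The 3 genes with separate groups were Sesn2, Eefsec and Rrm2b, and all missed the test. Sesn2, a stress-induced sestrin, had log2 levels of 6.67, 6.72 and 6.76 on knockout-labelled replicates 1 to 3 and 6.79, 7.04 and 6.86 on wild-type replicates 1 to 3. Its log2 difference of -0.18 (95% interval -0.41 to 0.052; limma, adjusted p = 0.664) was the largest in size of the 35. Eefsec, the elongation factor that delivers selenocysteine to the ribosome, had log2 levels of 8.31, 8.34 and 8.29 against 8.42, 8.43 and 8.42 in the same order, and a log2 difference of -0.11 (95% interval -0.29 to 0.058; limma, adjusted p = 0.706). Replicates of each group lay close together for that gene. Rrm2b, a subunit of ribonucleotide reductase, an enzyme that thioredoxin can reduce, ran from 7.74 to 7.87 on the knockout-labelled arrays, and all 3 wild-type arrays were at 7.90 or above. Its log2 difference was -0.13 (95% interval -0.33 to 0.068; limma, adjusted p = 0.707).

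The other lists held no gene with separate groups. Of 8 further genes of the thioredoxin family and fold, 7 had lower means, with log2 differences of -0.090 for Txn2, the mitochondrial thioredoxin, and -0.12 for nucleoredoxin (Nxn). Txnip, which binds and inhibits thioredoxin, was at 0.00087 with a 95% interval of -0.35 to 0.35. Of 4 glutaredoxins, which use glutathione as the electron donor, Glrx was at -0.10 and Glrx3 at 0.12. Of 4 methionine sulfoxide reductases, which thioredoxin keeps reduced, Msrb1 was at -0.060 and Msrb3 at -0.11. Of 6 measured genes of ER thiol oxidation, the disulfide isomerases P4hb and Pdia6 were at -0.073 and 0.18 (95% interval for Pdia6 -0.11 to 0.46). Pdia4 was not analysed here. The other sestrin nearest the test, Sesn1, was at -0.096, the reductase subunit Rrm1 at -0.092 and Trnau1ap, a factor of selenocysteine incorporation, at -0.12.

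**Figure D4:**
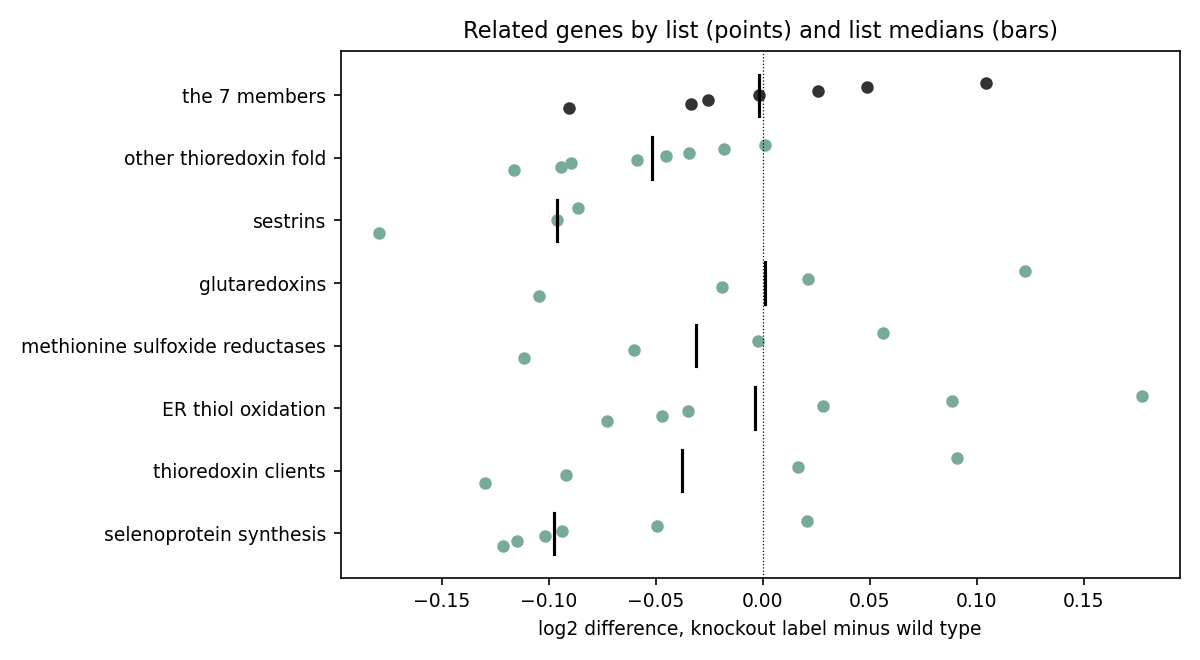
Log2 difference between the knockout-labelled and wild-type arrays for each gene (points) of the 7 members and of the 7 lists of related genes, with a bar at each list's median. All points lie between -0.18 and 0.18, and none passed the test.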

How the data were processed

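The deposited table holds log2 values for each probe set on each array, which the authors made with RMA, per the submitters' processing notes. RMA corrects background, normalizes between arrays and summarises probes, so a change common to most genes would be removed and differences of dim probe sets are compressed. The log2 scale was read from the values, which run from 0.745 to 14.1. The sources used here do not give its software version or annotation. The number of arrays limits the precision.

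Gene names came from a platform annotation updated through Entrez identifiers to RefSeq (GRCm38.p6), which matched 23328 of the 23521 probe sets with 1 gene. A further 1814 had several genes and 16010 had none, and probe sets with several genes were not assigned to 1 gene. Each of the 41345 probe sets was tested with limma 3.58.1 in R 4.3.3 (lmFit and eBayes on 6 arrays, no covariates), with Benjamini-Hochberg adjustment over all of them and a threshold of 0.05. The test was checked on simulated data. It called 49 of 100 changes of log2 size 1 and 86 of 100 of size 2 in the right direction, with 4 false calls. The simulation drew independent noise for each probe set at its own spread, with no effect shared across an array. The changed probe sets were picked at random, and the members had a smaller spread than most. The counts are thus not rates for the members. Smaller changes were not simulated.

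The members and lists were chosen with earlier results of these data known. The genes named are the members, Bach1 and Hmox1, the 2 genes per related list with the smallest unadjusted p, and the 5 genes most like the members' mean; Txnip and markers were named after their values were seen. The promoter motifs were chosen after the values too. Alternatives were renewed quantile normalization, median centring, cyclic loess, a filter on dim probe sets, trended robust variances, a replicate block, each array left out, and other probe set choices.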

Additional observations from a re-analysis of the deposited data

How the results depend on the processing

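Under the alternatives 0 of the 7 measured members passed the test. Of 13 alternatives, 4 leave a gene's log2 difference as it is by construction, and of the 63 values under the others 53 kept their direction. The other 10 changed sign: Prdx2 was at 0.021 without knockout-labelled replicate 2 (-0.077 to 0.021 over single arrays left out), Prdx3 at -0.021 with median centring and -0.035 without knockout-labelled replicate 3 (-0.035 to 0.067), and Txn1 at 0.011 without wild-type replicate 3 (-0.057 to 0.011). Txnrd1 was at 0.038 after both renewed quantile normalization (0.0380) and cyclic loess (0.0383), and from -0.066 to 0.043 without single arrays, positive in 4 of the 6. Shared probe set 17417480 was at -0.0066, -0.026 and -0.0023 after quantile normalization, median centring and cyclic loess, and from -0.081 to 0.086 without single arrays, and shared probe set 17548658 from -0.048 to 0.00019 without single arrays. Shared probe set 17428698 ran from -0.44 to -0.10 without single arrays, and its unadjusted p was 0.0471 without knockout-labelled replicate 1. The cause was not tested. The members' median stayed between -0.057 and 0.041. Median centring moved the median over all probe sets to -0.047, and the values given with it include that shift. Each of the 7 genes has 1 probe set, so averaging probe sets changed nothing.

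Of the 3 probe sets called, 0 passed without any single array (lowest and highest count 0) or with the replicate block. Hmox1 then lay at 1.88 to 2.03 without single arrays, and at 1.95 with the replicate block (adjusted p = 0.544). Same-numbered arrays correlated at 0.086, -0.033 and 0.039 in their deviations from the group means. Differently numbered arrays correlated at -0.083 to 0.046, so the value of the replicates numbered 1 was the highest. All these values were small, and the numbers were not taken as pairs. The block called 0 of the 7 members. The median of the related genes, an alternative added after seeing the data, ran from -0.097 to -0.020, and 22 to 30 of the 35 genes were lower. The -0.097 and the 30 came with median centring, which moved the median over all probe sets to -0.047.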

Other observations

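Knockout-labelled replicate 2 had the lowest value of the 6 arrays for 16 of the 35 related genes and for Prdx2, Prdx3 and Prdx4 among the 7 members. Wild-type replicate 2 was the lowest for as many members, Txn1, Txnrd1 and Srxn1, and for 3 of the 35 related genes. Over the brighter probe sets, past the 40th percentile, knockout-labelled replicate 2 was the lowest array for 25.7%, and the other arrays for 13.1% to 16.6% each. The mean log2 deviation of the 8 further genes of the thioredoxin family and fold from their wild-type means was -0.18 on that array, against -0.011 and 0.019 on the other knockout-labelled arrays and -0.068 to 0.061 on the wild-type arrays. Without this array the median log2 difference of the related genes was -0.020 in place of -0.050, and 24 in place of 25 of the 35 genes were lower.

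For the 6 genes of selenoprotein synthesis, which the thioredoxin reductases need for their selenocysteine, 5 had their lower mean under the knockout label. Their mean log2 deviations were -0.064, -0.13 and -0.033 on knockout-labelled replicates 1 to 3 and -0.0062, 0.036 and -0.030 on wild-type replicates 1 to 3. This was the 1 of the 7 related lists with separate groups, by a narrow margin. The 6 endothelial markers moved with it, at -0.13, -0.18 and -0.048 against -0.021, 0.034 and -0.013 in the same order, and their part in this was not tested. For the selenoprotein genes limma called 0 of the 6, 0 reached an unadjusted p under 0.05, and Txnrd1 and Txnrd2 had log2 differences of -0.0017 (positive in 6 alternatives) and 0.049.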
